A study of Caenorhabditis elegans with 15 samples.

Results

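Superoxide dismutases and catalases are the enzymes that dispose of superoxide and of hydrogen peroxide, and the nematode Caenorhabditis elegans carries 5 genes of the first kind (sod-1 to sod-5) and 3 of the second (ctl-1 to ctl-3). These 8 genes were taken by name from the transcript-to-gene map deposited with the data, out of 46904 genes in all. Their RNA was measured by Smart-seq2, a full-length and non-stranded method for little RNA, in dissected intestines of 5-day-old worms grown on OP50 bacteria. Each sample pooled 20 intestines, and there were 5 samples in each of 3 groups.

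The first group was wild type. The second, called gas-1 or the mutant here, carried gas-1(fc21), a mutation in the gene for a subunit of respiratory complex I. The third, called OE here, carried the same gas-1(fc21) mutation and overexpressed cest-2.2, a carboxylesterase gene, so the comparison of OE with gas-1 asks about cest-2.2 and the comparison of gas-1 with wild type about the mutation. OE against wild type differs in both. The promoter of the overexpression construct and the number of independent lines are not given in the sources used here. Nothing in the labels says whether the 5 samples of a group came from separate cultures, so the p-values measure the spread between these samples, which may be technical.

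As background, a dismutase turns superoxide, a by-product of respiration, into oxygen and hydrogen peroxide, and a catalase turns hydrogen peroxide into water and oxygen. In C. elegans, SOD-1 and SOD-5 are the cytosolic copper/zinc enzymes, SOD-4 is the extracellular copper/zinc enzyme and SOD-2 and SOD-3 are the mitochondrial manganese enzymes. CTL-2 is the peroxisomal catalase and CTL-1 the cytosolic one. sod-3 is widely used as a reporter of the insulin-pathway transcription factor DAF-16, and the intestine is a main site of DAF-16 activity.

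The libraries held between 12182697 and 45896053 estimated counts, and no pair held identical values. Since fc21 is a missense allele, the RNA of gas-1 does not check the label, and gas-1 RNA was in fact higher in the mutant (124 ± 20.8 CPM, counts scaled to a common library size, SD, n = 5) than in wild type (67.8 ± 14.4). cest-2.2 stood at 42.2 ± 17.4 CPM in the wild-type group, 56.1 ± 24.2 in the mutant and 121 ± 42.7 in OE (all SD, n = 5). The OE level was 2.16-fold that of gas-1, with an adjusted p of 0.109, which did not pass the test, and the ranges overlapped (60.9 to 179 against 34.9 to 97.5 CPM). Markers of the labelled tissue were present in every library, none of 20 intestine markers being at 0 throughout.

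The groups differed in tissue markers as well as in genotype. Against wild type, 12 of 20 intestine markers were higher in the mutant and none lower, and their summed level ran from 5323 to 12516 CPM in the wild-type group, 9833 to 15850 in the mutant and 7866 to 16239 in OE. Of 24 germline markers, 10 were lower in the mutant, with sums of 4091 to 4915 CPM in the wild-type group, 2473 to 4064 in the mutant and 3364 to 5522 in OE. Of 18 oocyte markers, 9 were lower, with sums of 7668 to 9418, 3603 to 6213 and 5200 to 9550 CPM. Muscle RNA was uneven: 6 of 15 body wall muscle markers were lower in the mutant, and the sums ran from 302 to 3715 CPM in the wild-type group, where replicates 1, 2 and 4 held 2308, 1318 and 3715, 331 to 556 in the mutant and 203 to 687 in OE. Sperm markers summed to at most 4.64 CPM in any library, with msp-45, msp-78, spe-11, ssp-9 and nspd-1 at 0 in all. Hypodermis markers summed to 159 to 5275 CPM in wild type, 285 to 1303 in the mutant and 137 to 982 in OE, with rol-6 and bli-1 at 0 throughout, and against wild type 1 of 7 tested was lower in the mutant and 3 of 7 in OE. Over all libraries, pharynx markers summed to 1.57 to 304 CPM (phat-1 at 0 throughout), neuron markers to 52.8 to 160 and somatic gonad markers to 293 to 612. In such bulk samples, a change in the share of cells of a type and a change in RNA per cell cannot be told apart.

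The 8 genes spanned a wide range of levels, compared here per transcript length as deposited TPM (a length-scaled share of a library's transcripts) summed over each gene. In wild type, sod-1 stood at 186 ± 23.5 TPM (SD, n = 5) and was the 566th most abundant of 10585 tested genes. ctl-2 followed at 91.9 ± 19.2 TPM, sod-2 at 76 ± 20.3 and ctl-1 at 74.8 ± 8.47. Every wild-type value of sod-1 lay above every value of those genes, whereas the ranges of ctl-2, sod-2 and ctl-1 overlapped each other. ctl-3 at 10.1 ± 7.22 TPM and sod-4 at 4.86 ± 3.14 also overlapped, sod-3 was at 0.901 ± 1.49 TPM and sod-5 was at 0 in all 5 wild-type libraries.

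In both gas-1 strains the order at the top was different. In gas-1, ctl-2 stood at 137 ± 23.1 TPM, ctl-1 at 128 ± 24.4 and sod-1 at 118 ± 20.5 (SD, n = 5), with overlapping ranges, and sod-2 lay below them at 59.8 ± 5.67. In OE, ctl-2 at 131 ± 39.4 TPM, sod-1 at 125 ± 18.8 and ctl-1 at 117 ± 19.4 overlapped in the same way, and sod-2 stood at 52.2 ± 21.4. The 2 genes with few reads, sod-3 and sod-5, did not pass the filter on low counts, so tests were run for 6 of the 8 genes.

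**Figure D1:**
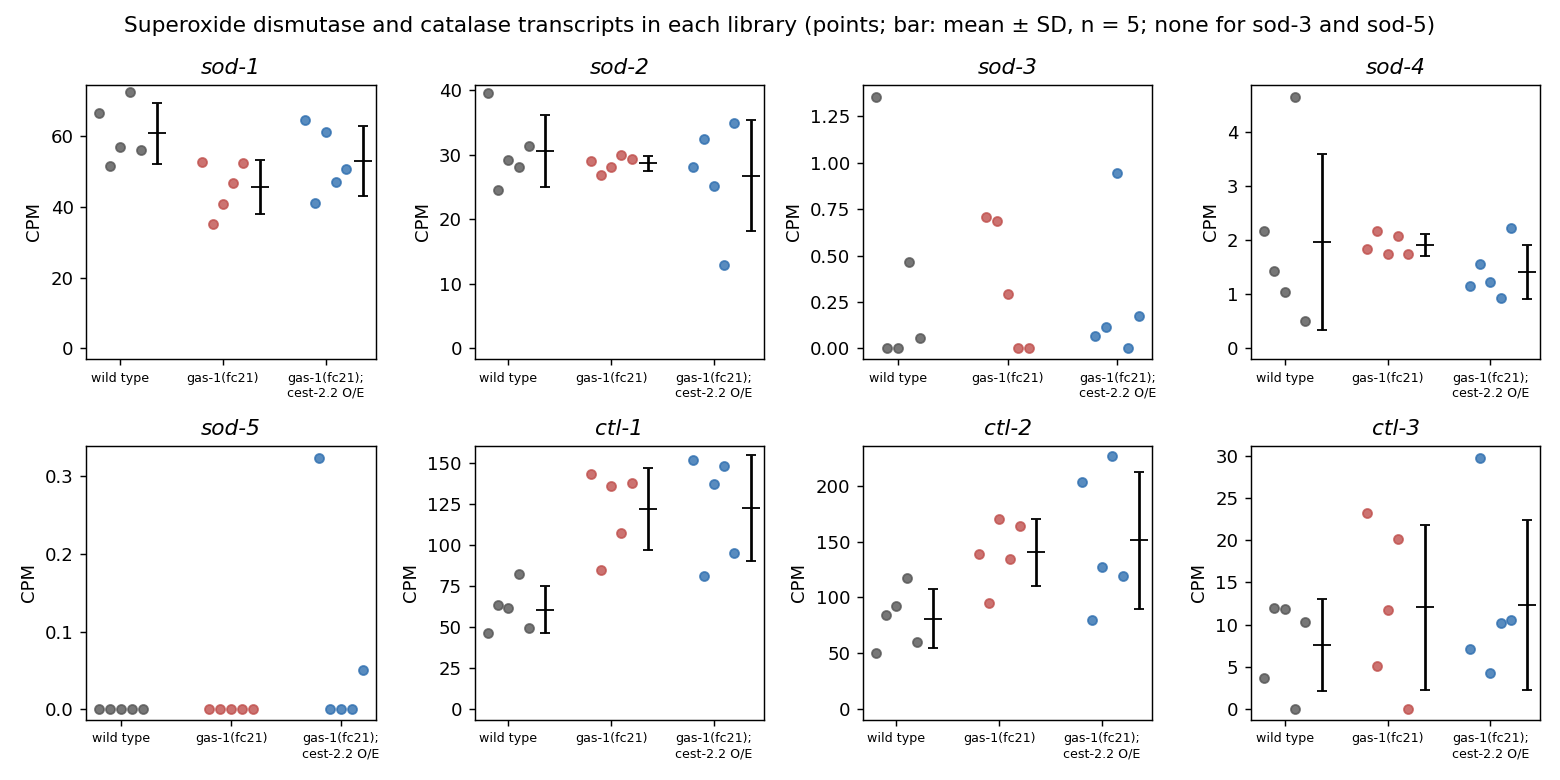
CPM (counts scaled for library size and composition; y axis of each panel starts near 0) of each of the 8 genes in each library, with 5 points per group in replicate order and the mean ± SD beside them, except for sod-3 and sod-5. The 5 gas-1 values of ctl-1 all lie above the 5 wild-type values, whereas gas-1 and wild type overlap for sod-1, sod-2, sod-3, sod-4, ctl-2 and ctl-3.

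sod-1, the main cytosolic copper/zinc dismutase gene, lies on chromosome II at 6972706 to 6973887 on the minus strand of WBcel235. Its wild-type libraries held 66.7, 51.5, 57.1, 72.7 and 56.2 CPM, the gas-1 libraries 52.9, 35.2, 41, 46.7 and 52.6, and the OE libraries 64.7, 41.2, 61.3, 47.1 and 50.8. Of the gas-1 values 3 lay below the wild-type range and 2 overlapped its lower end, and OE spread over both. The gene shares 85 exon bases with the noncoding C15F1.13 on the other strand. The change was −0.41 ± 0.16 on the log2 scale (SE) in gas-1 against wild type, with an adjusted p of 0.0782 (edgeR quasi-likelihood test, Benjamini-Hochberg over all tested genes). It was 0.21 ± 0.16 in OE against gas-1 (adjusted p 0.571, 95% interval −0.14 to 0.57) and −0.20 ± 0.16 in OE against wild type (adjusted p 0.476). None of these passed the threshold of 0.05. On TPM in place of counts, the changes against wild type were −0.66 in the mutant (adjusted p 0.00957, limma) and −0.58 in OE (adjusted p 0.03), but the median of all genes also moved, by −0.25 and −0.36. Relative to that median, sod-1 in gas-1 stood at −0.30 on TPM and −0.31 on counts.

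sod-2, the constitutive mitochondrial manganese dismutase gene (chromosome I, 8434550 to 8435807, plus strand), held 39.5, 24.6, 29.2, 28.1 and 31.4 CPM in the wild-type group, 29.1, 26.9, 28.1, 29.9 and 29.4 in the mutant and 28.1, 32.5, 25.2, 13 and 35 in OE. The gas-1 libraries sat inside the wild-type range, and OE replicate 4 lay below all other libraries. The gene shares 21 exon bases with dpt-1 on the other strand. Its coefficient of variation was 4.12% in the mutant and 32.1% in OE. The change in gas-1 against wild type was −0.09 ± 0.21 (log2, SE; adjusted p 0.782), with a 95% interval from −0.56 to 0.38. It was −0.10 ± 0.22 in OE against gas-1 (adjusted p 0.875, 95% interval −0.57 to 0.37). Neither passed the test, and the intervals leave room for changes of up to about that size.

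sod-4, the extracellular enzyme's gene (chromosome III, 9496884 to 9500375, minus strand), was low throughout. It held 2.18, 1.43, 1.05, 4.66 and 0.513 CPM in the wild-type group, 1.84, 2.18, 1.75, 2.09 and 1.74 in the mutant, and 1.16, 1.57, 1.23, 0.933 and 2.22 in OE. Wild-type replicate 4, with the most muscle RNA, held the highest value of all, and the groups overlapped. The changes were −0.02 ± 0.54, −0.42 ± 0.54 and −0.44 ± 0.54 (log2, SE) for gas-1 against wild type, OE against gas-1 and OE against wild type, with adjusted p values of 0.979, 0.758 and 0.647. The gene shares 175 exon bases with ctr-9 on the other strand, and in a non-stranded library reads from there cannot be told apart.

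sod-3, the inducible mitochondrial dismutase gene (chromosome X, 17092753 to 17094306, plus strand), was close to undetected in these intestines. Estimated counts were 26, 0, 0, 5 and 1 in the wild-type libraries, 10, 11, 4, 0 and 0 in the mutant and 1, 2, 10, 0 and 7 in OE. Reads were present in 3, 3 and 4 libraries of the respective groups, and the highest level, 1.35 CPM, was in wild-type replicate 1. It shares 65 exon bases with C08A9.3 and 24 with lido-1, both on the other strand.

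sod-5, the inducible cytosolic dismutase gene (chromosome II, 4417633 to 4419130, plus strand), had no read in any wild-type or gas-1 library. In OE, replicate 1 held 5 estimated counts (0.323 CPM) and replicate 5 held 2 (0.0499 CPM), and the other libraries 0. At these depths a count of 0 allows up to 3 counts, which is 0.0703 to 0.283 CPM depending on the library and covers counting error only, so low expression was not detectable.

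The 3 catalase genes lie side by side on the minus strand of chromosome II. ctl-2 is at 14299556 to 14302027, ctl-1 at 14303568 to 14306260 and ctl-3 at 14307798 to 14310779, with 1540 and 1537 bases between neighbours, no annotated gene between them and a span of 11224 bases in all. As background, they are known as related genes, and kallisto divides reads that fit several transcripts among them. How many reads they share was not tested, so their separate values are uncertain to that extent. ctl-2 also shares 65 exon bases with Y54G11A.7 on the other strand.

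ctl-1, the cytosolic catalase gene, was higher in both gas-1 strains than in wild type. It held 46.2, 63.4, 61.5, 82.6 and 49.5 CPM in the wild-type libraries, 143, 84.7, 136, 107 and 138 in the mutant, and 152, 81.3, 137, 148 and 95.4 in OE. Every gas-1 library stood above every wild-type library, and 4 of 5 OE libraries did so, OE replicate 2 lying just under the highest wild-type value. The increase was 2.01-fold in gas-1 against wild type (log2 1.00 ± 0.22, SE; 95% interval 0.53 to 1.47; adjusted p 0.00517) and 2.02-fold in OE against wild type (log2 1.02 ± 0.22; 95% interval 0.55 to 1.49; adjusted p 0.00924). These comparisons share their wild-type libraries. In edgeR fits with the intestine marker level as a covariate, the differences were 0.08 (adjusted p 0.955) and 0.29 (adjusted p 0.723). In each comparison the call was lost in 2 of 26 alternatives. The median log2 change of the 20 intestine markers was 0.95 in gas-1 and 0.82 in OE against wild type. Between OE and gas-1 the difference was 0.01 ± 0.21 (log2; adjusted p 0.986), and its 95% interval ran from −0.45 to 0.48.

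ctl-2, the peroxisomal catalase gene, had the same pattern with more spread. It held 50.4, 84.3, 92.5, 117 and 60.5 CPM in the wild-type group, 139, 95.1, 170, 134 and 164 in the mutant, and 203, 80.2, 127, 227 and 118.97 in OE. Of the gas-1 libraries 4 exceeded all of wild type, as did 4 of the OE libraries, and replicate 2 was the low one in both strains. The differences were 0.80 ± 0.28 in the mutant (log2, SE; 95% interval 0.18 to 1.41; adjusted p 0.0527) and 0.90 ± 0.28 in OE (95% interval 0.29 to 1.51; adjusted p 0.0541) against wild type, neither of which passed. The gas-1 difference passed the test without wild-type replicate 4, gas-1 replicate 2, OE replicate 2 or OE replicate 4, and with DESeq2 (adjusted p 0.0279). It also passed with limma-voom, on TPM, with only the groups compared and without replicate 2 of both gas-1 strains. In all it passed in 9 of 26 alternatives. The OE difference passed the test without wild-type replicate 4, gas-1 replicate 2 or OE replicate 2, and with DESeq2 (adjusted p 0.0267). It also passed without replicate 2 of both gas-1 strains, which makes 5 of 26 alternatives. With a marker score as a covariate the direction turned in gas-1 against wild type, to −0.05 with the germline score (adjusted p 0.979) and −0.52 with the intestine score (adjusted p 0.401). For OE against wild type it was 0.55 (adjusted p 0.22) and −0.17 (adjusted p 0.906) with these scores. Between OE and gas-1, the difference of ctl-2 was 0.10 ± 0.28 (log2; adjusted p 0.9; 95% interval −0.50 to 0.71), which did not pass.

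ctl-3, the remaining catalase gene, was assigned few and erratic reads. It held 3.74, 12, 11.9, 0 and 10.3 CPM in the wild-type group, 23.2, 5.11, 11.7, 20.2 and 0 in the mutant, and 7.11, 29.7, 4.24, 10.2 and 10.5 in OE. The differences of 0.65 ± 0.94, 0.04 ± 0.94 and 0.69 ± 0.94 (log2, SE) for gas-1 against wild type, OE against gas-1 and OE against wild type had adjusted p values of 0.641, 0.992 and 0.689. It was at 0 in wild-type replicate 4 and gas-1 replicate 5, where ctl-1 held 82.6 and 138 CPM, and how far the split of shared reads enters these values was not tested.

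**Figure D2:**
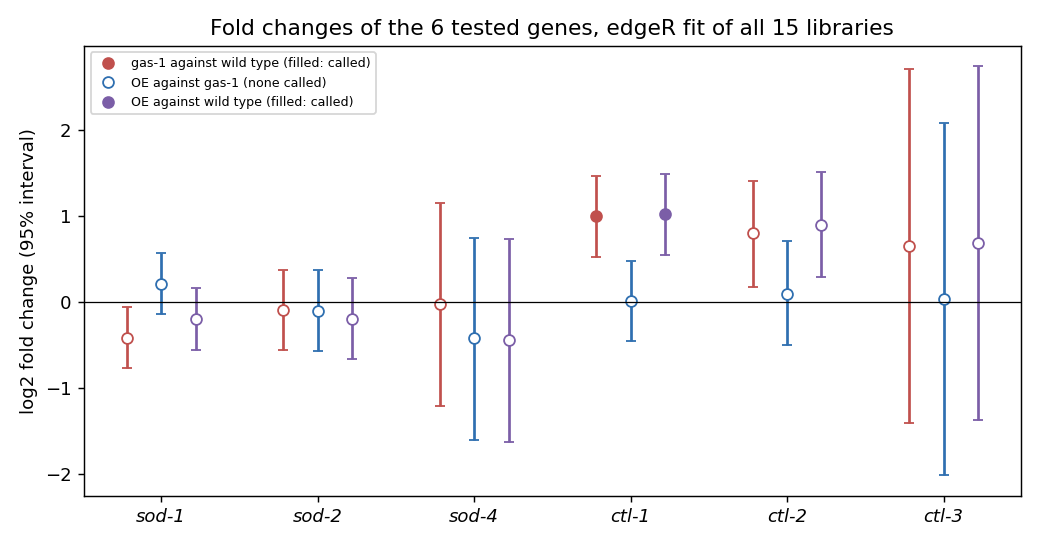
Log2 fold change (y axis) with its 95% interval for the 6 tested genes (x axis) in gas-1 against wild type, OE against gas-1 and OE against wild type. Only ctl-1, at 1.00 and 1.02 against wild type, is drawn as a filled point, which marks an adjusted p under 0.05, and the ctl-3 and sod-4 intervals are the widest.

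Taking the tested genes as a list, 1 of 6 was called in gas-1 against wild type, where 21.4% of all tested genes were called, 12.8% higher and 8.63% lower. The count of members is therefore close to the background. In OE against wild type 1 of 6 was called, against a background of 9.33% (7.09% higher and 2.24% lower). In OE against gas-1 none was, with 0 at an unadjusted p under 0.05 and 0 by DESeq2, against 1.59% of all genes (0.633% higher and 0.954% lower). The median log2 change of the 6 genes was 0.32, 0.02 and 0.25 for gas-1 against wild type, OE against gas-1 and OE against wild type, beside −0.11, 0.03 and −0.04 over all tested genes. In gas-1 against wild type, 15.9% of tested genes had no overlap between the groups, and 9.62% were higher without overlap, as ctl-1 was. The list of called genes grew from 1 to 2, by ctl-2, without wild-type replicate 4, gas-1 replicate 2, OE replicate 2 or OE replicate 4 in gas-1 against wild type. It grew likewise without wild-type replicate 4, gas-1 replicate 2 or OE replicate 2 in OE against wild type.

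Catalase RNA stood higher relative to dismutase RNA in both gas-1 strains than in wild type. The 3 catalase genes together held 132, 206, 194, 187 and 165 TPM in the wild-type libraries, 334, 198, 311, 286 and 267 in the mutant and 316, 226, 242, 308 and 212 in OE. The 5 dismutase genes together held 338, 236, 242, 238 and 285 TPM in wild type, 216, 161, 163, 202 and 174 in the mutant and 197, 205, 190, 119.1 and 194 in OE. The ratio of catalase to dismutase TPM within a library, which no scaling between libraries can move, was 0.391, 0.871, 0.802, 0.788 and 0.58 in wild type. It was 1.54, 1.23, 1.91, 1.42 and 1.54 in the mutant and 1.61, 1.11, 1.28, 2.59 and 1.1 in OE. By TPM, every wild-type library thus held less catalase than dismutase RNA and every library of either gas-1 strain held more. The mean ratios were 0.686 ± 0.198, 1.53 ± 0.247 and 1.54 ± 0.624 (SD, n = 5). The ranges of gas-1 and OE overlapped. In CPM, which is not scaled by length, wild-type libraries held 100, 160, 166, 200 and 120 for catalases. For dismutases they held 110, 77.6, 87.3, 106 and 88.2, so most held more catalase reads. The dismutase sums overlapped between groups in CPM, at 77.6 to 110, 65 to 84.5 and 61 to 94.4. On TPM the median change of all genes against wild type also moved from that on counts, by −0.25 in the mutant and −0.36 in OE. These sums are descriptions, without a test. How often such a ratio separates the groups for other sets of genes was not computed, and 15.9% of single genes did not overlap between gas-1 and wild type. The part of the intestine marker level, which moved with the same groups, was not tested for this ratio.

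**Figure D3:**
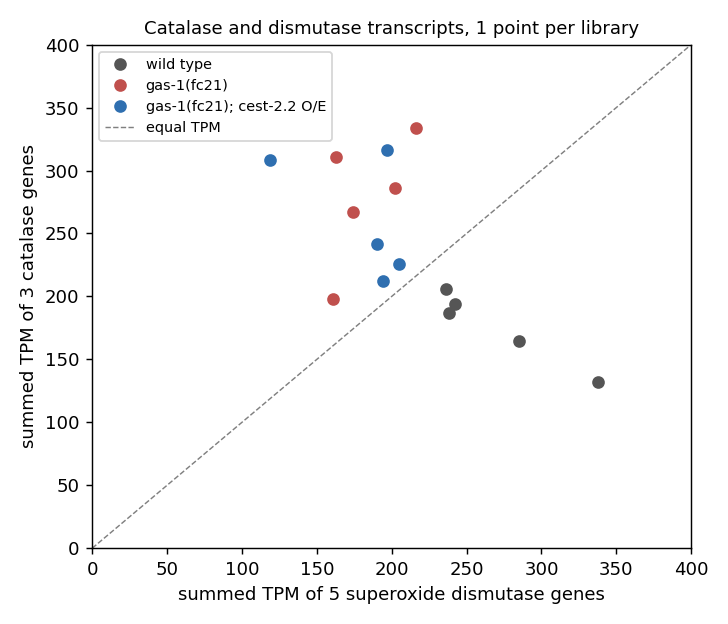
Summed TPM of the 3 catalase genes (y axis) against summed TPM of the 5 dismutase genes (x axis), 1 point per library, with a dashed line where both are equal. The 5 wild-type points fall below the line and the 10 points of both gas-1 strains above it.

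Within each family the shares of single genes overlapped between the groups. ctl-1 made up 42.7 ± 3.41% of catalase TPM in wild type, 46 ± 2.46% in the mutant and 44.9 ± 4.72% in OE (SD, n = 5), and ctl-2 51.7 ± 3.68%, 49.4 ± 3.42% and 49.6 ± 6.83%. ctl-3 ranged from 0% to 16.3% of catalase TPM over single libraries. sod-1 made up 69.8 ± 2.64% of dismutase TPM in wild type, 64.4 ± 3.43% in the mutant and 70.1 ± 8.45% in OE, and most of the rest was sod-2.

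Transcript assignments within genes did not separate the groups. All ctl-1 reads were assigned to Y54G11A.6.1, its other transcript being at 0 in all 15 libraries. The main ctl-2 transcript, Y54G11A.5.1, held 88.5 ± 8.36%, 89.8 ± 5.57% and 88.1 ± 3.82% of the gene's estimated counts in wild type, gas-1 and OE (SD, n = 5). The main sod-1 transcript, C15F1.7b.1, held 82.9 ± 6.13%, 83.7 ± 21.6% and 82.8 ± 17%. The sod-4a transcript, F55H2.1a.1, held between 62.1% and 100% of sod-4 in single libraries.

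The catalase differences ran alongside the intestine marker level of each library. The mean log2 CPM of the 20 intestine markers lay between 5.74 and 6.77 in wild type, 7.18 and 7.77 in the mutant and 6.47 and 7.64 in OE. The markers did not change alike in gas-1 against wild type, with a median log2 change of 0.95. Single changes ran from 0.12 for asp-3 to 3.53 for pgp-1 and 3.65 for inx-16, which held only 0.149 and 2.04 CPM in wild type and gas-1. How far single markers set the mean was not tested. The log2 level of ctl-1 minus that mean was −0.69 to −0.21 in wild type, −0.77 to −0.43 in the mutant and −0.66 to −0.12 in OE, so the groups overlapped on this scale. ctl-2 minus the same mean was −0.19 to 0.10, −0.61 to −0.21 and −0.34 to 0.20. The log2 level of sod-1 minus that mean was −0.83 to 0.32 in wild type, −2.41 to −1.75 in the mutant and −2.08 to −1.1 in OE, without overlap with wild type. The marker mean itself was higher in most libraries of both gas-1 strains, so a gene of unchanged level also comes out lower on this scale. Without the subtraction sod-1 overlapped between the groups, at 5.69 to 6.19, 5.14 to 5.73 and 5.37 to 6.02 log2 CPM. How many of all genes separate on the subtracted scale was not computed. sod-2 minus that mean was −1.95 to −0.43 in wild type, −2.95 to −2.39 in the mutant and −3.93 to −1.44 in OE, where OE overlapped wild type. In gas-1 replicate 2 and OE replicate 2, the libraries with the lowest ctl-1 and ctl-2 of their groups, the germline score was the highest and the intestine score the lowest of the group.

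With the intestine marker score as a covariate, chosen after the values were seen, the difference of ctl-1 was 0.08 ± 0.21 (log2, SE; adjusted p 0.955) in the mutant and 0.29 ± 0.18 (adjusted p 0.723) in OE against wild type. With the germline score as a covariate, the difference of ctl-1 was 0.30 ± 0.23 (adjusted p 0.686) in the mutant and 0.75 ± 0.17 (adjusted p 0.0186) in OE against wild type. Without wild-type replicates 1, 2 and 4, the libraries with the most muscle RNA, ctl-1 rose by 1.15 ± 0.30 in the mutant (adjusted p 0.0435), and its difference was 1.15 ± 0.30 in OE (adjusted p 0.0764). The group and the marker level differ together, so they cannot be told apart here.

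**Figure D4:**
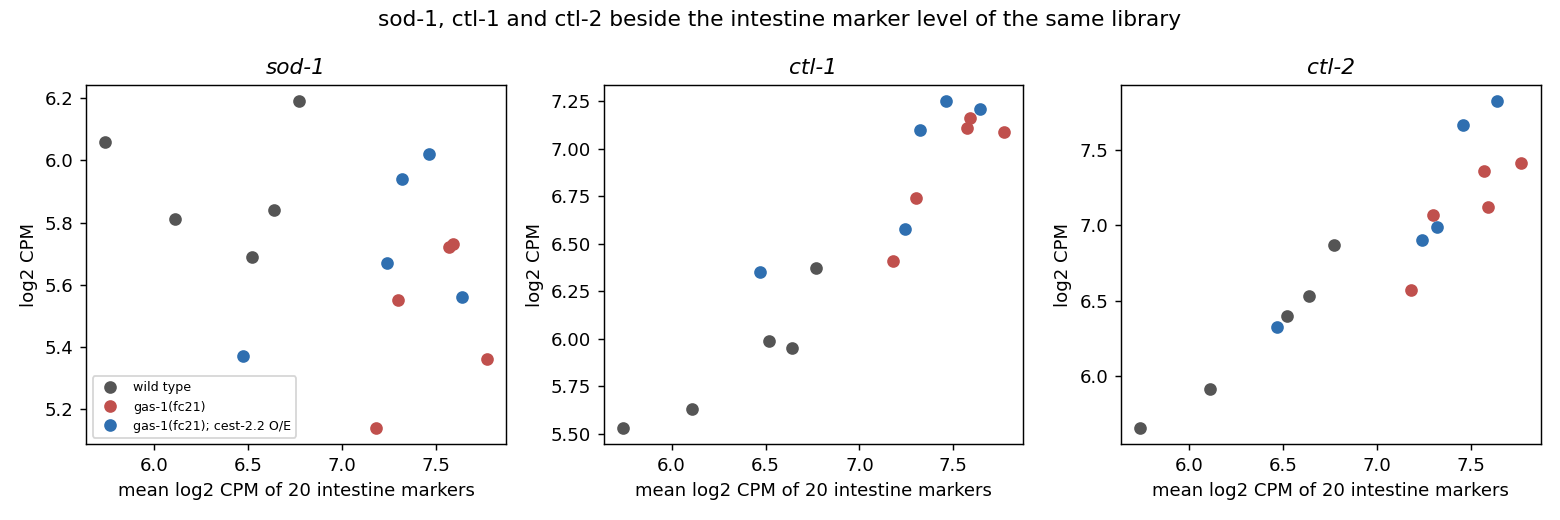
Log2 CPM of sod-1, ctl-1 and ctl-2 (y axes) against the mean log2 CPM of 20 intestine markers (x axes), 1 point per library. The wild-type points, at marker means of 5.74 to 6.77, are the lowest for ctl-1 together with OE replicate 2, and libraries with more intestine marker RNA hold more ctl-1 and ctl-2.

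The genes whose profiles over the 15 libraries were most like those of a member were found by the mean absolute difference of centred log2 CPM. For ctl-1 they were gdh-1 (0.0783), hpo-8 (0.0866) and pes-9 (0.0983), beside a median of 0.627 over 5785 genes. Their changes in gas-1 against wild type were 0.85, 0.86 and 1.17 on the log2 scale, and in OE against gas-1 0.08, 0.14 and −0.12. For ctl-2 they were adah-1 (0.121), scav-1 (0.127) and acs-5 (0.13). ctl-2 itself ranked 69th of 5785 in likeness to ctl-1, with a difference of 0.171. For sod-1 the nearest were ate-1 (0.134), mdh-1 (0.166) and lsy-22 (0.175), and for sod-2 F52B11.2 (0.139), mrpl-40 (0.141) and skr-17 (0.148). The least distinct matches were those of sod-4, led by F49C12.12 (0.317), and of ctl-3, led by rog-1 (1.11).

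Among other enzymes that act on peroxide or on oxidised thiols, 23 were tested. In gas-1 against wild type 4 were higher and none lower, with a median log2 change of 0.17, where 21.4% of all tested genes were called and 12.8% were higher, so this count is near the background. msra-1, a methionine sulfoxide reductase, rose from 51.5 to 374 CPM in the mean (log2 2.86 ± 0.25, adjusted p 2.83e-06). gpx-7, a glutathione peroxidase, rose from 19.8 to 63.9 CPM (1.69 ± 0.29, adjusted p 0.00102). trx-2 and trxr-2, the mitochondrial thioredoxin and its reductase, rose by 0.99 ± 0.26 and 0.68 ± 0.23 (adjusted p 0.0149 and 0.044). With the germline or the intestine marker score as a covariate, 1 gene of the list was called in either fit, and 2 were without wild-type replicates 1, 2 and 4 or with no filter on low counts, and 7 with DESeq2. In OE against gas-1, msra-1 alone of these 23 was called, and it fell to 139 CPM (log2 −1.43 ± 0.24, adjusted p 0.00495), where neither ctl-1 nor ctl-2 passed the test. Against wild type 2 of 23 were higher in OE, msra-1 (1.43 ± 0.24) and gpx-7 (1.09 ± 0.28), and 1 without wild-type replicate 5, OE replicate 1 or OE replicate 4. Over all tested genes 1.59% were called in OE against gas-1, and 7.09% were higher in OE against wild type.

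The dismutases need copper, zinc or manganese, and the metal supply list holds transporters, chaperones and ferritins for these metals and for iron. Of 11 tested, 5 were higher and none lower in gas-1 against wild type, with a median of 0.71, beside 12.8% of all tested genes higher and 8.63% lower. As the lists were chosen with earlier results of these data known, such a count beside the background is a description only. The count was 3 without gas-1 replicate 5 or without wild-type replicates 1, 2 and 4. chca-1, a copper importer of the intestine, rose from 17.3 to 208 CPM (log2 3.58 ± 0.30, adjusted p 1.99e-06). zipt-2.3, a member of the ZIP zinc transporter family, rose from 2.08 to 31.4 CPM (3.90 ± 0.38, adjusted p 6.49e-06). cuc-1, the copper chaperone that delivers copper to the transporter CUA-1, rose 3.60-fold (1.85 ± 0.27, adjusted p 0.000253). ftn-2, a ferritin, rose by 0.85 ± 0.24 (adjusted p 0.0212), and the copper transporter cua-1 by 0.64 ± 0.22 (adjusted p 0.0446). With either marker score as a covariate, 2 of the list were called. In OE against gas-1, zipt-2.3 fell by 2.18 ± 0.35 on the log2 scale (adjusted p 0.00359) and was the single gene called. Against wild type, 4 were higher in OE, chca-1, cuc-1, cua-1 and zipt-2.3, and ftn-1 was lower (−1.28 ± 0.39, adjusted p 0.0483). Over all tested genes 1.59% were called in OE against gas-1, and 7.09% were higher and 2.24% lower in OE against wild type.

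CTL-2 reaches the peroxisome through the import machinery. Of 11 prx genes on the peroxisome import list, 4 were higher in gas-1 against wild type, with a median of 0.83, beside 12.8% of all tested genes. The list was chosen with earlier results of these data known, and which of its genes act on CTL-2 was not tested. They were prx-3 (1.04 ± 0.29, adjusted p 0.0194), prx-1 (1.01 ± 0.32, adjusted p 0.0358), prx-6 (1.2 ± 0.39, adjusted p 0.0393) and prx-5, the receptor for the targeting signal (0.96 ± 0.33, adjusted p 0.0498). The count fell to 1 without replicate 1 or 5 of wild type, or replicate 3 or 5 of the mutant, and to 2 without replicate 3 of wild type, or replicate 1 or 4 of the mutant. It was 2 with the replicate number as a block or no filter on low counts, 1 on TPM, and 0 without wild-type replicates 1, 2 and 4 or with either marker score as a covariate. None of the 11 passed edgeR's test in OE against gas-1, with 2 at an unadjusted p under 0.05 and 0 by DESeq2. Over all tested genes 1.59% were called in that comparison and 9.33% in OE against wild type. prx-3 was the single gene called in OE against wild type (0.96 ± 0.29, adjusted p 0.045), with 4 called without OE replicate 2, 2 without gas-1 replicate 5 and 0 without OE replicate 1, 3, 4 or 5, replicate 1, 3 or 4 of the mutant, or replicate 1, 3 or 5 of wild type.

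Genes listed as sources of superoxide or peroxide were mixed. The list also holds genes of ubiquinone synthesis (clk-1) and peroxidases (mlt-7, skpo-1), which are not sources themselves. Of 17 tested in gas-1 against wild type, 6 were higher and 1 lower, with a median of 0.54, beside 12.8% and 8.63% of all tested genes. This list too was chosen with earlier results of these data known. acox-1.2, a peroxisomal acyl-CoA oxidase, fell from 176 to 22 CPM (log2 −3.0 ± 0.23, adjusted p 1.21e-06). mev-1, a subunit of respiratory complex II, rose by 0.74 ± 0.15 (adjusted p 0.00323), clk-1, an enzyme of ubiquinone synthesis, by 0.96 ± 0.20 (adjusted p 0.00472) and sdhb-1, another complex II subunit, by 0.75 ± 0.17 (adjusted p 0.00731). isp-1, the Rieske protein of complex III, and the acyl-CoA oxidases acox-1.3 and acox-1.5 also passed. The count of 7 was 3 without wild-type replicates 1, 2 and 4, and 1 with the germline score and 2 with the intestine score as a covariate. None of the 17 passed edgeR's test in OE against gas-1, with 3 at an unadjusted p under 0.05 and 0 by DESeq2. Over all tested genes 1.59% were called there. In OE against wild type 4 were higher and acox-1.2 was lower (−2.3 ± 0.22, adjusted p 2.55e-05), beside 7.09% higher and 2.24% lower of all tested genes. That count of 5 was 9 without OE replicate 2, 1 without OE replicate 1, 2 without OE replicate 3 and 3 without OE replicate 5.

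The regulators upstream of these genes moved in both directions. Of 26 tested in gas-1 against wild type, 3 were higher and 5 lower, with a median of 0.04. Over all tested genes 21.4% were called, 12.8% higher and 8.63% lower. pqm-1, a zinc finger transcription factor, rose from 15.4 to 39.4 CPM (log2 1.35 ± 0.31, adjusted p 0.00697), as did the kinase gene sgk-1 (1.01 ± 0.33, adjusted p 0.0413) and the homeobox gene ceh-60 (1.42 ± 0.43, adjusted p 0.0276). The kinase genes age-1 (−0.85 ± 0.20, adjusted p 0.00864), pdk-1 (−0.84 ± 0.25, adjusted p 0.0264) and akt-1 (−0.52 ± 0.16, adjusted p 0.0343) fell, as did hcf-1 (−0.59 ± 0.17, adjusted p 0.0233). The count of 8 was 3 without replicate 1 of wild type, or replicate 3 or 5 of the mutant, 4 without wild-type replicate 5, 5 without replicate 2 of wild type, or replicate 1 of the mutant, 2 without wild-type replicates 1, 2 and 4 together, and 0 with either marker score as a covariate. daf-16 itself, at 71.2, 84.3 and 92.7 CPM in the wild-type group, gas-1 and OE, did not pass (0.24 ± 0.19 in gas-1 against wild type, adjusted p 0.363), nor did skn-1 (0.10 ± 0.14, adjusted p 0.646). None of the 26 passed edgeR's test in OE against gas-1, with 8 at an unadjusted p under 0.05 and 1 by DESeq2. Nor did any in OE against wild type, with 6 at an unadjusted p under 0.05 and 2 by DESeq2, and 4 passed without OE replicate 2 and 1 without wild-type replicate 2 or 4. Over all tested genes 1.59% were called in OE against gas-1 and 9.33% in OE against wild type.

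Other genes known as DAF-16 targets, beside sod-3, did not move together. Of 19 tested in gas-1 against wild type, 3 were higher and 1 lower, with a median of 0.36. This is close to the 21.4% called over all tested genes. The count was 2 without wild-type replicate 1 or 5, or without replicates 1, 2 and 4 together. It was 0 with either marker score as a covariate. mtl-2, a metallothionein gene that is also on the intestine marker list, rose from 371 to 874 CPM (log2 1.24 ± 0.27, adjusted p 0.0053), gpd-2, a glyceraldehyde-3-phosphate dehydrogenase, rose by 1.16 ± 0.25 (adjusted p 0.00492) and the small heat shock gene hsp-12.3 by 1.60 ± 0.54 (adjusted p 0.0433). lea-1, a desiccation-tolerance protein gene, fell from 255 to 128 CPM (−1.0 ± 0.26, adjusted p 0.0142). In OE against gas-1, mtl-2 fell by 1.21 ± 0.27 (adjusted p 0.0318) and lea-1 rose by 1.75 ± 0.26 (adjusted p 0.00243). That count of 2 was 1 without gas-1 replicate 1, 3 or 4 or OE replicate 1, 3 or 4. Over all tested genes 1.59% were called in OE against gas-1 and 9.33% in OE against wild type. In OE against wild type gpd-2 was higher (0.94 ± 0.25, adjusted p 0.0252) and ftn-1, which is on the metal supply list too, was lower, a count of 2 that was 0 without OE replicate 1, 3 or 4 and 1 without OE replicate 2, replicate 1, 2, 3 or 4 of the mutant, or replicate 2 of wild type.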

How the data were processed

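The authors' deposited files give, per transcript, estimated counts, TPM and length. Per the submitters' processing notes, reads were handled with bcl2fastq 2.20 and kallisto 0.44.0 on WBcel235, and the annotation release is not given in the sources used here. Transcripts are numbered by line, and reading the number as the line of the deposited map, counted from 0, gave equal lengths for 99.96% of 27233 noncoding transcripts. Deposited estimated counts were summed per gene, filtered at a minimum count of 10 (10585 genes kept), rounded and fitted with edgeR 4.0.16 (R 4.3.3; TMM scaling, quasi-likelihood test, 1 fit of 15 libraries with 12 residual degrees of freedom). P-values were adjusted by Benjamini-Hochberg over all tested genes and called under 0.05. CPM values are scaled by TMM. Deposited TPM was summed per gene for levels between genes, and limma 3.58.1 on log2(TPM + 0.5) and DESeq2 1.42.0 were alternatives. Intervals of fold changes are at 95%, from the SE and 12 degrees of freedom.

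The genes and all lists were chosen with earlier results of these data known. Genes named are the 8 genes, the 3 genes most alike each tested one, up to 4 called genes of each list and comparison by adjusted p, and daf-16 and skn-1 as regulators. Calls named past the first 4 (cua-1, ftn-1, isp-1, acox-1.3, acox-1.5, pdk-1, ceh-60, akt-1, sgk-1) were chosen after their values were seen. Coordinates come from the annotation of the same build. Estimated counts depend on how kallisto split reads shared between transcripts. The fit was tested on simulated data. Sequences were not used here. The values of 1 called gene on the list of regulators are not reported here, and the counts of that list include it.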

Additional observations from a re-analysis of the deposited data

Results flagged for a closer look

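In OE replicate 2, ctl-3 stood at 29.7 CPM, far above the other OE libraries (4.24 to 10.5 CPM), the gap being 0.755 of the group's range. It was the only one of 18 groups of 5 libraries checked in which a single library stood so far apart, where chance alone gives about 1 such group. The same library had the lowest ctl-1 and ctl-2 of its group and the highest germline score.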

How the results depend on the processing

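Over 26 alternatives, ctl-1 kept its direction against wild type in both gas-1 strains (log2 0.08 to 1.18 for gas-1, 0.29 to 1.19 for OE). It lost its call with the germline score (0.30) and the intestine score (0.08) as covariates in gas-1, and with the intestine score (0.29) and without wild-type replicates 1, 2 and 4 (1.15) in OE. The number of superoxide dismutases and catalases called in gas-1 against wild type was 2 with DESeq2, limma-voom, only the groups compared, or without gas-1 replicate 2 and OE replicate 2, 3 on TPM, 0 with either covariate and 1 to 2 with single libraries left out. In OE against wild type it was 2 with DESeq2, on TPM or without gas-1 replicate 2 and OE replicate 2, 0 with the intestine score or without wild-type replicates 1, 2 and 4, and 1 to 2 with single libraries left out. The fits with the intestine score and without replicate 2 of both gas-1 strains were chosen after seeing the data.

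Genes called in gas-1 against wild type numbered 2268, but 171 with the germline score, 148 with the intestine score, 556 without wild-type replicates 1, 2 and 4, 2837 without replicate 2 of both gas-1 strains and 1319 to 2488 with single libraries left out, fewer by over 1.5 times without replicate 1, 2 or 5 of wild type, or replicate 3 or 5 of the mutant. In OE against gas-1 there were 168, but 544 with DESeq2, 327 on TPM, 362 with the intestine score and 85 to 380 with single libraries left out, the highest without gas-1 replicate 2 and over 1.5 times fewer without gas-1 replicate 1 or 3 or OE replicate 1, 2 or 5. In OE against wild type there were 988, but 1608 with DESeq2, 1509 on TPM, 644 in a fit of the groups compared, 549 with the germline score, 79 with the intestine score, 144 without wild-type replicates 1, 2 and 4, 1661 without replicate 2 of both gas-1 strains and 512 to 1631 with single libraries left out, the highest without OE replicate 2 and over 1.5 times fewer without wild-type replicate 1 or OE replicate 1 or 4.

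Signs turned for changes that were not called. For ctl-2, gas-1 against wild type was −0.05 with the germline and −0.52 with the intestine score, OE against wild type −0.17 with the intestine score, and OE against gas-1 −0.10 on TPM (−0.11 to 0.25 leaving out libraries). For ctl-1, OE against gas-1 was −0.02 with DESeq2, RLE size factors or the groups compared, −0.13 on TPM, −0.01 with limma-voom, −0.0005 without wild-type replicates 1, 2 and 4 and −0.10 to 0.11 leaving out libraries. For ctl-3, gas-1 against wild type was −0.14 with limma-voom, and OE against gas-1 −0.78 and −0.39 with the covariates, −0.80 without replicate 2 of both strains and −0.61 to 0.41 leaving out libraries. For sod-2, gas-1 against wild type was 0.19 and 0.50 with the covariates, 0.01 without replicate 2 of both strains and −0.12 to 0.07 leaving out libraries. OE against wild type was 0.25 with the intestine score (−0.31 to 0.01 leaving out libraries), and OE against gas-1 −0.21 to 0.06. For sod-4, gas-1 against wild type was 0.01 with DESeq2 or without replicate 2 of both strains, 0.06 on TPM, 0.55 with limma-voom, 1.29 without wild-type replicates 1, 2 and 4 and −0.18 to 0.56 leaving out libraries, and OE against wild type 0.24 with limma-voom, 0.86 without those replicates and −0.67 to 0.14. For gas-1 RNA in OE against gas-1 the values were 0.33 and 0.10 with the covariates and −0.15 to 0.05 leaving out libraries, and cest-2.2 in gas-1 against wild type was −0.39 and −0.93 with the covariates. The cause of these shifts was not tested.

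Over the same 26 alternatives, the genes called in gas-1 against wild type numbered 1 to 7 for peroxide and thiol enzymes, 2 to 7 for metal supply, 0 to 7 for peroxisome import, 1 to 10 for superoxide sources, 0 to 10 for regulators and 0 to 5 for DAF-16 targets. For OE against wild type they numbered 0 to 3, 1 to 5, 0 to 4, 1 to 10, 0 to 4 and 0 to 4 in that order.

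Same-numbered libraries shared little of their deviation from the group means, except in single pairs. Of 5 pairs per comparison, 0, 1 and 1 had a correlation above 0.1. The highest was 0.093 in gas-1 against wild type, 0.272 in OE against gas-1 and 0.121 in OE against wild type, where the lowest was −0.336. Replicate 2 of gas-1 and of OE each had the lowest intestine and the highest germline score of its group. With the replicate number as a block, the superoxide dismutases and catalases called stayed at 1, 0 and 1, peroxisome import genes called in gas-1 against wild type went from 4 to 2, those called in OE against wild type from 1 to 0 (import), 5 to 3 (superoxide sources) and 2 to 1 (DAF-16 targets), all genes called in OE against gas-1 fell to 102, and sod-4 in gas-1 against wild type (0.14), ctl-1 (−0.01) and ctl-3 (−0.14) in OE against gas-1 turned sign. The promoter motif search that had been planned was not run.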
